A study of Homo sapiens with 9 samples.

Results

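The 32 genes described here encode the Sm proteins, the Sm-like (LSm) proteins, the proteins particular to the U1 and U2 small nuclear ribonucleoproteins (snRNPs), and the SMN complex that loads Sm rings onto small nuclear RNAs (snRNAs). They were taken by symbol from a table of 61487 genes, and each had exactly 1 row. By role they are 8 genes of the Sm core (SNRPB, SNRPN, SNRPD1, SNRPD2, SNRPD3, SNRPE, SNRPF and SNRPG), 5 of U1 and U2 (SNRPA, SNRPC, SNRNP70, SNRPA1 and SNRPB2), 8 of the LSm core (LSM1 to LSM8), 2 of the U7 snRNP (LSM10 and LSM11) and 9 of the SMN complex (SMN1, GEMIN2, DDX20, GEMIN4 to GEMIN8 and STRAP). All 32 passed the filter on low counts, as did 14630 genes in all. RNA-seq was performed on OVCAR4, an established line of high-grade serous ovarian cancer cells, in 3 groups of 3 libraries. These were Pt-resistant cells given 5 µM of EPZ015666, an inhibitor of the arginine methyltransferase PRMT5, for 5 days, Pt-resistant cells given DMSO, and naive cells given DMSO. Pt-resistant cells are a cisplatin-resistant derivative of the same line, all groups carry the same wild-type genotype label, and there was no inhibitor-treated naive group. Replicates were wells seeded in triplicate, so that the spread behind each p-value is that of wells and may be technical, and 1 resistant derivative stands for resistance.

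Total counts ran from 14320929 to 19114811 per library. Markers of serous ovarian epithelium were present in every group (PAX8 averaged 144 CPM in inhibitor-treated, 115 CPM in Pt-resistant and 134 CPM in naive cells), except WT1, which stayed below 1 CPM. Their summed level was 3311 to 3364 CPM in inhibitor-treated, 4035 to 4175 CPM in Pt-resistant and 4300 to 4605 CPM in naive libraries. KRT7 was the largest part of it, at 1638, 2333 and 1929 CPM in the inhibitor-treated, Pt-resistant and naive groups. CDH1 averaged 50.6, 74.2 and 167 CPM and EPCAM 247, 330 and 519 CPM in the same order. Of the 8 markers tested, the inhibitor raised 2 and lowered 5 (25% and 62.5%, against 31.9% and 30.5% of all tested genes). In Pt-resistant against naive cells 1 was higher and 6 lower (12.5% and 75%, against 29.8% and 29.4%). The 6 immune markers summed to 2.80 to 3.87 CPM in inhibitor-treated, 0.42 to 0.57 CPM in Pt-resistant and 0.88 to 1.10 CPM in naive libraries, and the 6 markers of fibroblasts and endothelium to 50.8 to 61.7 CPM in inhibitor-treated, 59.0 to 66.1 CPM in Pt-resistant and 101 to 108 CPM in naive libraries. Most of that last sum was PECAM1 (43.7 CPM in inhibitor-treated, 57.4 CPM in Pt-resistant and 95.4 CPM in naive cells). COL1A1 averaged 10.2 CPM in inhibitor-treated, 3.83 CPM in Pt-resistant and 6.94 CPM in naive cells, VWF was at 1.65, 1.02 and 2.65 CPM in the inhibitor-treated, Pt-resistant and naive groups, and PDGFRB, COL3A1 and DCN were below 1 CPM in each group. Mitochondrially encoded mRNAs took 6.26 to 8.31% of counts in inhibitor-treated, 4.45 to 5.19% in Pt-resistant and 5.97 to 7.82% in naive libraries. Whether these shifts play a part in the values below was not tested. Here CPM are counts relative to library totals scaled by the TMM method of edgeR, and a call is an adjusted p under 0.05 in edgeR's quasi-likelihood test with Benjamini-Hochberg adjustment over all 14630 genes.

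Most spliceosomal snRNAs carry a ring of Sm proteins, while U6 snRNA carries a related ring of LSm proteins in the nucleus. A second LSm ring, in the cytoplasm, acts with the decapping enzyme in mRNA decay. The nuclear ring contains LSM8 and the cytoplasmic ring LSM1, with LSM2 to LSM7 common to both. In the U7 snRNP, which processes the ends of histone pre-mRNAs, LSM10 and LSM11 replace SmD1 and SmD2. PRMT5 is known for methylating arginines in the tails of SmB, SmD1, SmD3 and LSM4, a mark that the Tudor domain of SMN binds, and the SMN complex then assembles the ring in the cytoplasm. What was measured here is only the mRNA of each gene, not its protein or its methylation.

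RefSeq promoters (GRCh38.p14, 250 bases before to 50 bases after each start) matched 28 of the 32 genes. The letters CCGGAAG, the core bound by ETS factors, were found on either strand in 11 of them (39.3%, against 10.3% of the 35116 promoters in the table), namely those of SNRPB, SNRPD2, SNRPE, SNRPG, SNRPC, SNRPA1, SNRPB2, LSM5, LSM8, GEMIN4 and GEMIN8. CCAAT was found in 11 (39.3% against 34.6%), CGCATGCG, the core for NRF1, in 2 (7.14% against 2.02%), AAGATGGCG, a YY1 site, in 1 (3.57% against 1.75%) and CACGTG, the E-box of MYC, in 1 (3.57% against 7.26%). TGACGTCA and TTTCGCGC were in none, against 1.85% and 0.515% of all promoters. A match is only a run of letters, and the table of all promoters also holds genes unlike these in kind. Of the promoters below, shown because their genes carry large changes with the inhibitor in the Sm, U2, LSm and SMN groups, those of SNRPB, SNRPA1 and LSM3 belong to genes that rose and those of LSM8 and GEMIN8 to genes that fell. The capitals mark matches to the motifs just named, read on the strand of the gene, with CTTCCGG and ATTGG as the reverse complements of CCGGAAG and CCAAT.
SNRPB (chr20:2470740-2471039, minus strand): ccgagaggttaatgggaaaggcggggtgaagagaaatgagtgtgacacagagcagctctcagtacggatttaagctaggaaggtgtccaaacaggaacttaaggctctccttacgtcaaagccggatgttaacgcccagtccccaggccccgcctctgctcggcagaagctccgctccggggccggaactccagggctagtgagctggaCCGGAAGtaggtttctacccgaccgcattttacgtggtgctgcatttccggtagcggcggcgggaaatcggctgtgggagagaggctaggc
SNRPA1 (chr15:101295199-101295498, minus strand): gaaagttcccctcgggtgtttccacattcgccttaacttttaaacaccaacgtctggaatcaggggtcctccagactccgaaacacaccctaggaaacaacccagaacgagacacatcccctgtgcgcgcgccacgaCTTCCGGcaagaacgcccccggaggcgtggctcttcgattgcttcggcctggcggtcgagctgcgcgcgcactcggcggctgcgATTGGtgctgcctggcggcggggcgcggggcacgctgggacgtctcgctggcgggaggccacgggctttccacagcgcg
LSM3 (chr3:14178567-14178866, plus strand): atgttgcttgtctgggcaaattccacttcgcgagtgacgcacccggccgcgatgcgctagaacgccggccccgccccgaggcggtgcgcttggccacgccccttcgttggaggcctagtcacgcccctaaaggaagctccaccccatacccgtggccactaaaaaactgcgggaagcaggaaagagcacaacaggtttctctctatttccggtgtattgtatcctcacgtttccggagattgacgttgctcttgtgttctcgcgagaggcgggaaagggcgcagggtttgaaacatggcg
LSM8 (chr7:118183914-118184213, plus strand): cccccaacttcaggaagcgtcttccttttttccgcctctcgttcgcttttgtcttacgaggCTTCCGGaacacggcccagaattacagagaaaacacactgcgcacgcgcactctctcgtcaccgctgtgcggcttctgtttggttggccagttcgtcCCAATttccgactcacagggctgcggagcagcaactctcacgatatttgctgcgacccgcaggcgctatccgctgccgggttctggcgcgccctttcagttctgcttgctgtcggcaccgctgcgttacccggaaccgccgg
GEMIN8 (chrX:14029843-14030142, minus strand): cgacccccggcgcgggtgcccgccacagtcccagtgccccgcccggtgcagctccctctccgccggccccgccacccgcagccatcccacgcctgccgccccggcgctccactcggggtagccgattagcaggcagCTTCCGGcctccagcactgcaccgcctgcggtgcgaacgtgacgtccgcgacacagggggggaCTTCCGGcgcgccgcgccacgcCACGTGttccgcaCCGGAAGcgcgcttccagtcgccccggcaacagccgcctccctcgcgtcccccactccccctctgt
The ETS core had 1 copy each in the windows of SNRPB, SNRPA1 and LSM8 and 3 copies in that of GEMIN8. Of all 11 genes with the core, 6 were called higher with the inhibitor (SNRPB, SNRPD2, SNRPE, SNRPA1, LSM5 and GEMIN4), 2 lower (LSM8 and GEMIN8) and 3 not called. Over all tested genes 31.9% were higher and 30.5% lower, and over the 32 genes 37.5% and 15.6%. The 11 genes with CCAAT had 6 higher, 1 lower and 4 not called. Whether either motif has a part in these changes was not tested. The window of LSM3 held none of the 7 motifs.

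The inhibitor was compared with DMSO in Pt-resistant cells to ask what blocking PRMT5 does to these mRNAs. Of the 32 genes, 12 rose and 5 fell, against 31.9% of all tested genes higher and 30.5% lower. The called share was 53.1%, against 62.4% of all tested genes. The strongest rise was that of LSM3, which was 2.10-fold higher, followed by LSM11, GEMIN2 and SNRPA1 at 1.72-, 1.70- and 1.68-fold. GEMIN8 showed the strongest fall, to 0.33 of its level under DMSO, and LSM8, SNRPN, GEMIN5 and SNRPD3 fell less. Groups did not overlap for 20 of the 32 genes (62.5%), against 66.5% of all tested genes. Changes were small beside the rest of the transcriptome, with a median absolute log2 fold change of 0.25 against 0.43 over all tested genes, and 8 genes (25%) were both called and changed 1.5-fold or more, against 35% of tested genes. Their median log2 fold change was 0.10, against 0.01 over all tested genes. All tested genes were not matched to the 32 in expression level, here or in the comparisons below. In bulk RNA, fewer cells with an mRNA and less of it per cell cannot be told apart.

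Pt-resistant and naive cells were compared to ask what acquired resistance changes. Here 10 of the 32 genes rose and 8 fell, against 29.8% higher and 29.4% lower among all tested genes. The called share was 56.2%, against 59.1%. No gene reached 2-fold, and only LSM2, LSM11 and GEMIN8 were called with 1.5-fold or more (9.38%, against 30.7% of tested genes). The median absolute log2 fold change was 0.25 against 0.39 over all tested genes, and 16 genes (50%) did not overlap between the groups, against 62.5%. Both comparisons use the Pt-resistant libraries, with opposite sign, so their values are given side by side and are not independent.

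The fold changes of inhibitor-treated Pt-resistant cells against naive cells do not use those libraries, though the libraries enter the scaling, the filter and the spread behind the p-values. This comparison called 15 genes higher and 6 lower, against 32.2% and 31.2% of all tested genes. The called share was 65.6%, against 63.4%. Called changes of 1.5-fold or more numbered 8 (25%, against 36.3%), with SNRPB, SNRPE, SNRPA1, LSM3 and GEMIN2 higher and SNRPN, GEMIN5 and GEMIN8 lower, and 19 genes did not overlap between the groups (59.4%, against 66.4%). The median log2 fold change of the 32 genes was 0.22, and their median absolute change 0.31 against 0.44 over all tested genes.

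**Figure D1:**
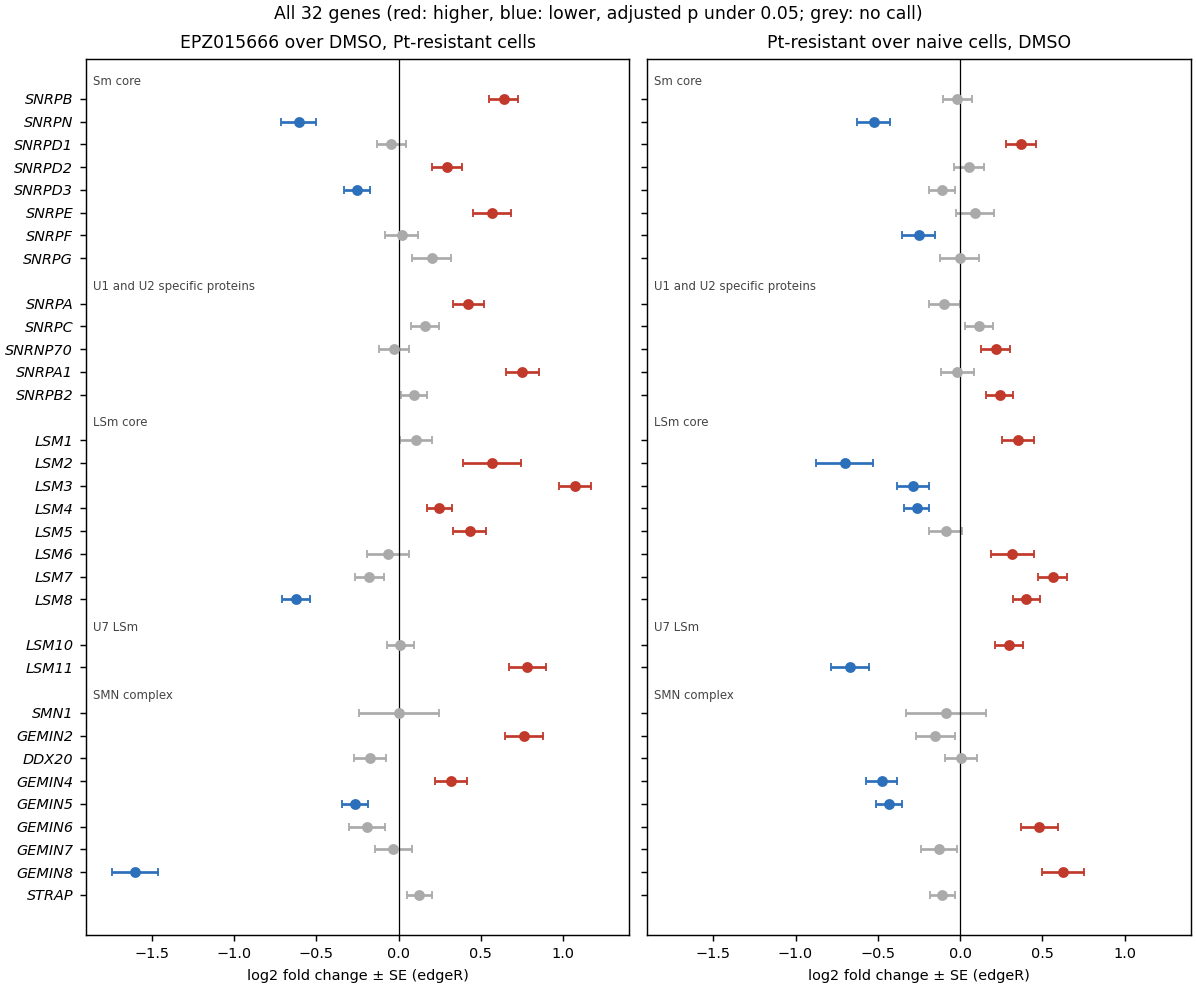
Log2 fold change of each of the 32 genes (points, with standard error bars, edgeR) for EPZ015666 over DMSO in Pt-resistant cells (left) and Pt-resistant over naive cells (right), grouped by role. Red points are called higher (12 left, 10 right), blue points called lower (5 left, 8 right) and grey points not called; GEMIN8 at -1.60 lies farthest from 0 on the left.

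In the Sm core, the inhibitor raised SNRPB, SNRPD2 and SNRPE and lowered SNRPN and SNRPD3, while SNRPD1, SNRPF and SNRPG were not called. SNRPB encodes SmB and SmB', members of every Sm ring. It stood at 376, 307 and 346 CPM in inhibitor-treated, 216, 228 and 217 CPM in Pt-resistant and 243, 197 and 229 CPM in naive libraries. Every treated library was above every other library, and the 2 DMSO groups overlapped. With the inhibitor its log2 fold change was 0.64 ± 0.09 (SE, adjusted p = 8.94e-07, edgeR), and between Pt-resistant and naive cells -0.02 ± 0.09 (adjusted p = 0.877). SNRPE, another ring subunit, had 93.8, 80.6 and 105 CPM with the inhibitor, 57.0, 73.6 and 58.0 CPM in Pt-resistant and 62.8, 47.6 and 66.6 CPM in naive libraries. It rose by 0.57 ± 0.12 on the log2 scale (adjusted p = 0.000165, edgeR), again with no overlap between treated and untreated libraries. SNRPD2 stood at 363, 312 and 361 CPM in treated, 246, 310 and 288 CPM in Pt-resistant and 262, 247 and 305 CPM in naive libraries. The lowest treated library lay barely above the highest Pt-resistant one (311.8 against 310.5 CPM). The change of 0.29 ± 0.09 (adjusted p = 0.00857, edgeR) lost its call without Pt-resistant replicate 1, at 0.21.

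SNRPN encodes SmN, a close relative of SmB that is known as the Sm protein of neurons and is expressed from the imprinted Prader-Willi region. It was at 18.2, 16.6 and 14.7 CPM in inhibitor-treated, 27.0, 26.8 and 21.6 CPM in Pt-resistant and 38.0, 34.6 and 36.0 CPM in naive libraries. The 3 groups were fully separate, with the treated cells lowest and the naive cells highest. The log2 fold change was -0.61 ± 0.11 with the inhibitor (adjusted p = 3.32e-05, edgeR), -0.53 ± 0.10 in Pt-resistant against naive cells (adjusted p = 0.000101) and -1.13 ± 0.11 in inhibitor-treated against naive cells (adjusted p = 2.15e-09). In GENCODE 29, 33.6% of its exon bases also belong to SNURF, SNHG14 or another transcript on the same strand, and reads over such bases are left out of the counts, so its level is uncertain. Counted within a library, SNRPN reads per SNRPB read were 0.0483, 0.0541 and 0.0423 in inhibitor-treated, 0.125, 0.118 and 0.0995 in Pt-resistant and 0.156, 0.175 and 0.157 in naive libraries. This ratio was chosen after the values were seen and carries no test.

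The remaining Sm genes are SNRPD3, SNRPD1, SNRPF and SNRPG. SNRPD3, which encodes one of the SmD proteins with an arginine-rich tail, was at 61.7, 62.2 and 59.3 CPM in treated, 70.0, 77.8 and 70.3 CPM in Pt-resistant and 74.4, 78.8 and 82.3 CPM in naive libraries. It fell by 0.25 on the log2 scale with the inhibitor (SE 0.08, adjusted p = 0.00731, edgeR), with all treated libraries lowest, and this call was lost without Pt-resistant replicate 2, at -0.20. SNRPD1 encodes the SmD1 protein, the other SmD with such a tail. Its levels were 115, 104 and 133 CPM in treated, 111, 128 and 125 CPM in Pt-resistant and 95.8, 86.7 and 99.0 CPM in naive libraries. Both resistant groups stood above the naive one, with a log2 fold change of 0.37 ± 0.09 in Pt-resistant against naive cells (adjusted p = 0.00111, edgeR) and -0.05 ± 0.09 with the inhibitor (adjusted p = 0.675). SNRPF changed by -0.25 ± 0.10 in Pt-resistant against naive cells (adjusted p = 0.0313, edgeR), but these groups overlapped (58.4, 56.1 and 56.4 against 75.8, 54.4 and 73.0 CPM), and the value was -0.16 without naive replicate 1 and -0.39 without naive replicate 2. This call was lost in 4 cases, when naive replicate 1 or 3 or Pt-resistant replicate 2 or 3 was left out. In inhibitor-treated cells SNRPF had 62.2, 54.0 and 56.6 CPM, a change of -0.24 ± 0.10 against naive cells (adjusted p = 0.0422, edgeR) that was -0.15 and not called without naive replicate 1, -0.37 without naive replicate 2, and also not called without naive replicate 3 or inhibitor-treated replicate 2 or 3 or with DESeq2. SNRPG was not called in any comparison, with 28.1, 26.5 and 29.8 CPM in treated, 22.2, 25.3 and 26.0 CPM in Pt-resistant and 21.0, 21.9 and 30.9 CPM in naive libraries. In GENCODE 29, 20 pseudogenes are named after SNRPG, 18 after SNRPC of the U1 snRNP, 9 after SNRPE, 4 each after SNRPF and LSM3 and fewer after other members, and reads that also map to such copies are left out of the counts. Summed over the 8 Sm genes, the level was 963 to 1118 CPM in inhibitor-treated, 808 to 926 CPM in Pt-resistant and 768 to 921 CPM in naive libraries.

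**Figure D2:**
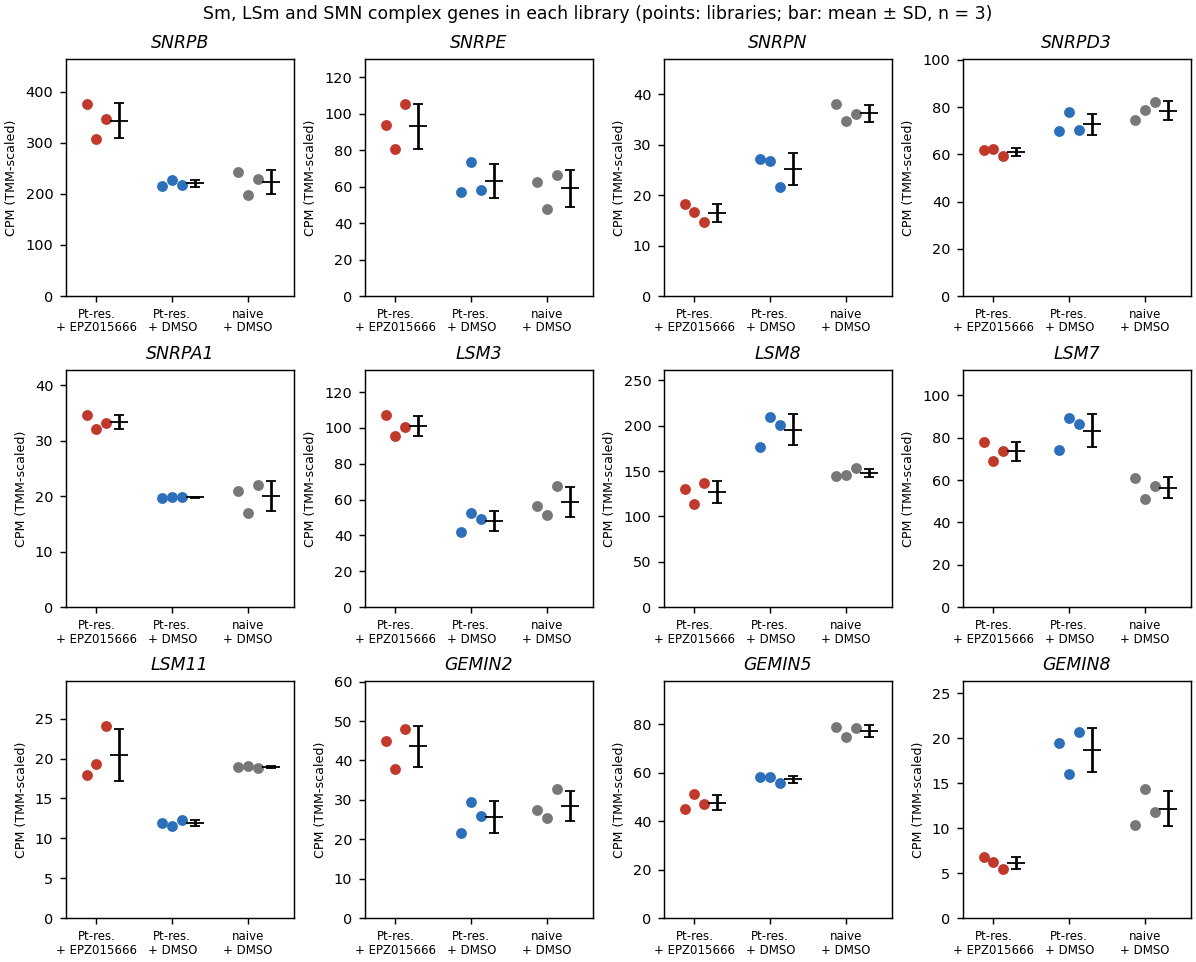
CPM (TMM-scaled) of 12 of the genes in each library (points), with the mean and SD of each group of 3 beside them. Inhibitor-treated Pt-resistant cells are red, Pt-resistant cells under DMSO blue and naive cells grey; the treated libraries stand above all others for SNRPB, SNRPE, SNRPA1, LSM3 and GEMIN2, and below all others for SNRPN, SNRPD3, LSM8, GEMIN5 and GEMIN8.

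Among the genes particular to U1 and U2, the inhibitor raised SNRPA1 and SNRPA, and the other 3 were not called. SNRPA1 encodes a leucine-rich repeat protein of the U2 snRNP. Its levels were 34.8, 32.2 and 33.3 CPM in inhibitor-treated, 19.8, 19.8 and 19.9 CPM in Pt-resistant and 21.0, 17.0 and 22.0 CPM in naive libraries. Treated libraries were well apart from both DMSO groups, which overlapped, and the log2 fold change was 0.75 ± 0.10 with the inhibitor (adjusted p = 4.85e-07, edgeR) and -0.02 ± 0.10 in Pt-resistant against naive cells (adjusted p = 0.895). SNRPA, the U1 snRNP protein that binds a stem-loop of U1 snRNA, had 69.2, 64.1 and 62.1 CPM in treated, 56.4, 43.1 and 46.3 CPM in Pt-resistant and 52.4, 48.5 and 54.6 CPM in naive libraries. It rose by 0.42 ± 0.09 on the log2 scale (adjusted p = 0.000365, edgeR), with no overlap. SNRPB2 is the RNA-binding partner of SNRPA1 in the U2 snRNP. It had 133, 122 and 139 CPM in treated, 117, 128 and 124 CPM in Pt-resistant and 102, 96.2 and 115 CPM in naive libraries. SNRPB2 changed by 0.09 ± 0.08 with the inhibitor (adjusted p = 0.323, edgeR) and by 0.24 ± 0.08 in Pt-resistant against naive cells (adjusted p = 0.0137), which was not called once naive replicate 2 (0.18) or Pt-resistant replicate 2 (0.21) was left out. Whether the 2 genes differ from each other was not tested. SNRNP70, which encodes U1-70K, changed by 0.21 ± 0.09 in Pt-resistant against naive cells (adjusted p = 0.0437, edgeR) with overlapping groups (115, 97.4 and 120 against 101, 93.6 and 92.1 CPM), and inhibitor-treated libraries had 116, 95.2 and 114 CPM. That call was lost without any 1 of naive replicates 2 and 3 and Pt-resistant replicates 1 and 3 (0.15 to 0.19), and with library size alone, no filter, only the groups compared or DESeq2 (0.19 to 0.21). SNRPC, which encodes a zinc finger protein of the U1 snRNP, stood at 152, 128 and 124 CPM in treated, 116, 130 and 117 CPM in Pt-resistant and 113, 106 and 115 CPM in naive libraries and was called only in inhibitor-treated against naive cells (0.27 ± 0.08, adjusted p = 0.00675, edgeR), where it was not called without inhibitor-treated replicate 1, at 0.18. Its counts also lack reads shared with its 18 pseudogenes.

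The LSm core moved in both directions. With the inhibitor LSM2, LSM3, LSM4 and LSM5 rose, LSM8 fell, and LSM1, LSM6 and LSM7 were not called. In Pt-resistant against naive cells LSM1, LSM6, LSM7 and LSM8 were higher and LSM2, LSM3 and LSM4 lower. LSM3, a subunit of both rings, stood at 107, 95.5 and 101 CPM in inhibitor-treated, 41.9, 52.7 and 49.4 CPM in Pt-resistant and 56.7, 51.3 and 67.8 CPM in naive libraries. The lowest treated library lay well above the highest of the other 6. Its log2 fold change was 1.07 ± 0.10 with the inhibitor (adjusted p = 1.89e-09, edgeR) and -0.29 ± 0.10 in Pt-resistant against naive cells (adjusted p = 0.0162), where the groups overlapped and the call did not hold when naive replicate 3 (-0.17) or Pt-resistant replicate 1 (-0.21) was left out. LSM8, the subunit that marks the nuclear ring, had 131, 114 and 136 CPM with the inhibitor, 176, 209 and 201 CPM in Pt-resistant and 145, 145 and 154 CPM in naive libraries. Pt-resistant libraries were highest and treated ones lowest, with no overlap between any 2 groups. LSM8 fell by 0.62 on the log2 scale with the inhibitor (SE 0.08, adjusted p = 7.95e-07, edgeR) and was 0.40 ± 0.08 higher in Pt-resistant than in naive cells (adjusted p = 0.000223). Against naive cells the treated ones were at -0.22 ± 0.08 (adjusted p = 0.0258), which did not pass when naive replicate 3 (-0.20) or inhibitor-treated replicate 2 (-0.15) was left out.

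LSM1, its counterpart in the cytoplasmic ring, stood at 62.5, 53.6 and 66.1 CPM in treated, 48.4, 62.0 and 58.8 CPM in Pt-resistant and 43.5, 40.8 and 48.3 CPM in naive libraries. It was 0.35 ± 0.10 higher on the log2 scale in Pt-resistant than in naive cells (adjusted p = 0.00396, edgeR), and with the inhibitor it changed by 0.11 ± 0.10 (adjusted p = 0.351). Within a library, LSM8 reads per LSM1 read numbered 2.09, 2.12 and 2.06 in inhibitor-treated, 3.64, 3.38 and 3.42 in Pt-resistant and 3.33, 3.56 and 3.18 in naive libraries. The treated libraries were apart from the rest, and the 2 DMSO groups overlapped. The ratio compares reads and not molecules, was chosen after the values were seen and was not tested; 38.5% of the exon bases of LSM1 lie opposite genes on the other strand, among them BAG4.

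**Figure D3:**
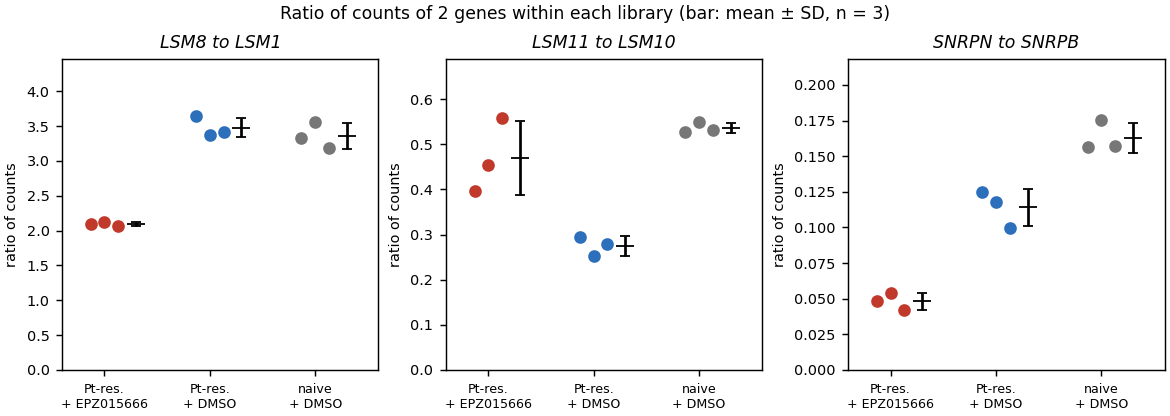
Ratio of counts of 2 genes within each library (points, with mean and SD of each group of 3), for LSM8 to LSM1, LSM11 to LSM10 and SNRPN to SNRPB. The LSM8 to LSM1 ratio is 2.06 to 2.12 in inhibitor-treated libraries, 3.38 to 3.64 in Pt-resistant and 3.18 to 3.56 in naive ones; the SNRPN to SNRPB ratio is lowest in treated and highest in naive libraries.

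LSM7, shared by both rings, had the largest rise in Pt-resistant cells among the LSm core genes. It had 78.0, 68.9 and 73.9 CPM in treated, 74.3, 89.1 and 86.5 CPM in Pt-resistant and 61.0, 51.2 and 57.0 CPM in naive libraries. Every Pt-resistant library lay above every naive one, with a log2 fold change of 0.56 ± 0.09 (adjusted p = 7.78e-06, edgeR), and with the inhibitor the change was -0.18 ± 0.09 (adjusted p = 0.0778), which passed when scaled by library size alone (-0.21) or without Pt-resistant replicate 1 (-0.25). LSM5 had 104, 90.8 and 113 CPM in treated, 64.4, 86.5 and 77.1 CPM in Pt-resistant and 82.4, 71.6 and 88.6 CPM in naive libraries. It rose by 0.43 ± 0.10 with the inhibitor (adjusted p = 0.000788, edgeR) without overlap. LSM4, the LSm protein with an arginine-rich tail, stood at 247, 220 and 235 CPM in treated, 204, 200 and 186 CPM in Pt-resistant and 256, 222 and 230 CPM in naive libraries. The Pt-resistant libraries were the lowest, at -0.26 ± 0.08 against naive cells (adjusted p = 0.00567, edgeR) and with a change of 0.25 ± 0.08 under the inhibitor (adjusted p = 0.00847). Without Pt-resistant replicate 3 the change under the inhibitor was 0.21 and not called. LSM2, like LSM5 and LSM6 a subunit of both rings, was low, at 7.46, 5.41 and 6.67 CPM in treated, 4.03, 5.27 and 3.90 CPM in Pt-resistant and 8.64, 6.53 and 6.24 CPM in naive libraries, that is 67 to 152 counts. It changed by 0.57 ± 0.18 with the inhibitor (adjusted p = 0.00732, edgeR), a call lost without inhibitor-treated replicate 1 (0.46), and by -0.70 ± 0.17 in Pt-resistant against naive cells (adjusted p = 0.00137). LSM6, at 8.04 to 13.4 CPM over the 9 libraries, changed by 0.32 ± 0.13 in Pt-resistant against naive cells (adjusted p = 0.0400, edgeR), and this call was lost in most alternatives, including without naive replicate 2 (0.17) or without any 1 Pt-resistant replicate (0.28 to 0.33).

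Of the U7 pair, LSM11 was called both with the inhibitor and in Pt-resistant against naive cells. LSM10 was called in Pt-resistant against naive cells and in treated against naive cells. LSM11 stood at 17.9, 19.3 and 24.1 CPM in inhibitor-treated, 11.9, 11.6 and 12.3 CPM in Pt-resistant and 18.9, 19.1 and 18.8 CPM in naive libraries. Pt-resistant libraries were the lowest without overlap, and treated and naive libraries overlapped. The log2 fold change was 0.78 ± 0.11 with the inhibitor (adjusted p = 2.20e-06, edgeR), -0.67 ± 0.11 in Pt-resistant against naive cells (adjusted p = 2.19e-05) and 0.11 ± 0.11 in treated against naive cells (adjusted p = 0.380). LSM10 had 45.2, 42.6 and 43.2 CPM in treated, 40.3, 45.9 and 43.9 CPM in Pt-resistant and 35.9, 34.8 and 35.3 CPM in naive libraries. It was 0.30 ± 0.08 higher in Pt-resistant than in naive cells (adjusted p = 0.00359, edgeR) and changed by 0.01 ± 0.08 with the inhibitor (adjusted p = 0.936). In treated against naive cells LSM10 was 0.31 ± 0.08 higher (adjusted p = 0.00269, edgeR). Both proteins sit in the same U7 ring, and their reads stood at 0.397, 0.453 and 0.559 LSM11 per LSM10 in treated, 0.295, 0.252 and 0.279 in Pt-resistant and 0.527, 0.549 and 0.532 in naive libraries, an untested ratio chosen after the values were seen.

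The SMN complex held the largest fall of the 32 genes with the inhibitor. With the inhibitor GEMIN2 and GEMIN4 rose, GEMIN5 and GEMIN8 fell, and the other 5 were not called. GEMIN8, which joins the subcomplex of GEMIN6 and GEMIN7 to SMN, was at 6.81, 6.21 and 5.48 CPM in inhibitor-treated, 19.4, 16.0 and 20.7 CPM in Pt-resistant and 10.4, 14.3 and 11.8 CPM in naive libraries. The 3 groups did not overlap, with Pt-resistant cells highest and treated cells lowest. Its log2 fold change was -1.60 ± 0.14 with the inhibitor (adjusted p = 8.68e-10, edgeR), 0.62 ± 0.13 in Pt-resistant against naive cells (adjusted p = 0.000209) and -0.97 ± 0.15 in treated against naive cells (adjusted p = 3.68e-06). It rested on 92 to 399 counts per library, and 3 pseudogenes are named after it in GENCODE 29. GEMIN6, which pairs with GEMIN7, was at 25.3, 23.2 and 27.6 CPM in treated, 26.7, 31.3 and 29.1 CPM in Pt-resistant and 20.5, 17.3 and 24.5 CPM in naive libraries. It rose by 0.48 ± 0.11 in Pt-resistant against naive cells (adjusted p = 0.000734, edgeR), and with the inhibitor it changed by -0.19 ± 0.11 (adjusted p = 0.133). In treated against naive cells its change of 0.29 ± 0.11 (adjusted p = 0.0300) was between overlapping groups and was not called without any 1 of naive replicates 1 and 2 and inhibitor-treated replicates 1 and 3 (0.17 to 0.29), with library size alone (0.23) or with DESeq2 (0.28). GEMIN7 was not called in any comparison, at 15.2 to 21.5 CPM over the 9 libraries.

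GEMIN2, which holds the partly assembled set of Sm proteins for SMN, had 45.0, 37.9 and 47.9 CPM in treated, 21.5, 29.4 and 26.0 CPM in Pt-resistant and 27.4, 25.4 and 32.7 CPM in naive libraries. All treated libraries were above all others. It rose by 0.76 ± 0.11 with the inhibitor (adjusted p = 3.68e-06, edgeR), and in Pt-resistant against naive cells it changed by -0.15 ± 0.12 (adjusted p = 0.278). GEMIN5, the subunit that recognises snRNAs, stood at 44.9, 51.1 and 47.0 CPM in treated, 58.2, 58.2 and 55.7 CPM in Pt-resistant and 79.0, 74.6 and 78.4 CPM in naive libraries. As with SNRPN, the 3 groups were separate, with treated cells lowest and naive cells highest. The log2 fold change was -0.27 ± 0.08 with the inhibitor (adjusted p = 0.00517, edgeR), -0.43 ± 0.08 in Pt-resistant against naive cells (adjusted p = 4.52e-05) and -0.70 ± 0.08 in treated against naive cells (adjusted p = 4.68e-08). GEMIN4, which binds the helicase DDX20, had 30.7, 30.9 and 34.8 CPM in treated, 27.3, 24.4 and 25.8 CPM in Pt-resistant and 39.5, 33.5 and 34.5 CPM in naive libraries. Pt-resistant libraries were lowest, at -0.48 ± 0.09 against naive ones (adjusted p = 0.00013, edgeR), and the inhibitor gave a change of 0.32 ± 0.09 (adjusted p = 0.00536).

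The other genes of the complex were not called in any of the 3 comparisons. DDX20, its DEAD-box helicase, ranged over the 9 libraries between 30.6 and 44.0 CPM, and STRAP, also known as UNRIP, between 213 and 263 CPM. SMN1 had 2.31, 1.87 and 1.43 CPM in treated, 1.92, 1.92 and 1.77 CPM in Pt-resistant and 1.82, 2.13 and 2.02 CPM in naive libraries. These are 24 to 39 counts per library, and SMN2, its near-identical copy, had 3 to 21, since reads that map to both genes are left out. The level of SMN mRNA can therefore not be read from these counts. Summed over the 9 genes, the SMN complex stood at 450 to 461 CPM in treated, 427 to 455 CPM in Pt-resistant and 466 to 497 CPM in naive libraries.

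Levels between genes were compared per kilobase of exon in GENCODE 29. SNRPB was the most abundant in inhibitor-treated cells, at 269 CPM per kb, and SNRPD2 and SNRPB were the 2 highest in Pt-resistant cells (175 and 173 CPM per kb) and in naive cells (169 and 175 CPM per kb). STRAP was at 112 CPM per kb in inhibitor-treated, 103 CPM per kb in Pt-resistant and 111 CPM per kb in naive cells. Ring subunits are present once per ring, but their mRNA levels spread widely, down to SNRPG at 15.7 CPM per kb in inhibitor-treated, 13.6 CPM per kb in Pt-resistant and 13.7 CPM per kb in naive cells among the genes common to all Sm rings. SMN1 was the lowest, near 0.60 to 0.64 CPM per kb, for the reason given above. These levels depend on the exon length taken for each gene and on the loss of reads shared with pseudogenes.

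Within groups, single libraries were low for many of the genes at once. In the inhibitor-treated group 20 of the 32 genes were lowest in replicate 2, in the Pt-resistant group 19 were lowest in replicate 1, and in the naive group 23 were lowest in replicate 2. The share of all tested genes lowest in these libraries was not counted. Whether the pattern is particular to the 32 genes is therefore not known. Summed over all 32 genes, the level was 2893, 2579 and 2850 CPM in inhibitor-treated, 2356, 2576 and 2448 CPM in Pt-resistant and 2478, 2247 and 2515 CPM in naive libraries. The treated libraries were thus the highest, the lowest of them by 3 CPM above the highest Pt-resistant library. What sets these libraries apart was not tested.

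The proteins around the pathway were read from lists chosen with earlier results of these data known. PRMT5 itself, the target of the inhibitor, stood at 125, 120 and 105 CPM in inhibitor-treated, 127, 107 and 117 CPM in Pt-resistant and 120, 121 and 123 CPM in naive libraries and was not called in any comparison. Counts in these lists are read beside the shares of all tested genes given above, 31.9% higher and 30.5% lower with the inhibitor and 29.8% higher and 29.4% lower in Pt-resistant against naive cells. Among the 6 genes listed with the PRMT5 methylosome, 2 rose and 1 fell with the inhibitor (33.3% and 16.7%). These were COPRS (0.53 on the log2 scale), PRMT7 (0.54), a separate enzyme that also methylates Sm proteins, and RIOK1 (-0.55), which competes with pICln for PRMT5. In Pt-resistant against naive cells RIOK1 was higher (0.22, adjusted p = 0.0363, edgeR), though these groups overlapped, and PRMT7 was lower (-0.52). The spliceosomal snRNAs that carry Sm rings leave the nucleus with the cap-binding complex and return with a trimethylated cap. Of 8 genes listed with this traffic, not all of them transport factors, 2 rose and 3 fell with the inhibitor (25% and 37.5%). In Pt-resistant against naive cells 5 of them rose and 1 fell (62.5% and 12.5%). TGS1, which makes the trimethylated cap, had 50.3, 52.5 and 45.6 CPM in treated, 102, 112 and 95.8 CPM in Pt-resistant and 59.8, 71.9 and 61.5 CPM in naive libraries. It was thus highest in Pt-resistant cells without overlap, with log2 fold changes of -1.06 ± 0.09 with the inhibitor (adjusted p = 4.15e-10, edgeR) and 0.69 ± 0.09 in Pt-resistant against naive cells (adjusted p = 4.47e-07). NCBP1, the large subunit of the cap-binding complex, fell by 0.58 with the inhibitor and was 0.58 higher in Pt-resistant than in naive cells, and NCBP2, the small subunit, was 0.65 higher in Pt-resistant cells. XPO1, the exportin, rose by 0.42 with the inhibitor.

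Later partners of the snRNPs were read in the same way. Of the 10 genes of the SF3 complexes, which join the U2 snRNP, 5 rose with the inhibitor (50%, beside 31.9% of all tested genes), led by SF3A3 (1.06 on the log2 scale), SF3B1 (0.60) and SF3B4 (0.33), and the other 5 were not called and lay between -0.18 and 0.15. In Pt-resistant cells 4 of the 10 were higher than in naive cells and 2 lower (40% and 20%, beside 29.8% and 29.4%), with SF3B5 at 0.79, SF3A3 at -0.74 and SF3B6 at 0.52. Of 16 genes of the U5 snRNP and the U4/U6.U5 tri-snRNP, 10 rose and 1 fell with the inhibitor (62.5% and 6.25%, beside 31.9% and 30.5% of all tested genes). PPIH, a cyclophilin of the tri-snRNP, was at 97.7, 76.2 and 89.9 CPM in treated, 32.5, 35.0 and 37.3 CPM in Pt-resistant and 39.8, 36.1 and 42.0 CPM in naive libraries. Treated libraries stood far above the rest, at a log2 fold change of 1.33 ± 0.09 (adjusted p = 2.59e-11, edgeR). The helicase DDX23 rose by 1.10 and PRPF4 by 0.81. Of the same 16, Pt-resistant cells had 3 higher and 7 lower than naive cells (18.8% and 43.8%, beside 29.8% and 29.4%), with PRPF3 at 0.76, PRPF8 at -0.65 and SNRNP200 at -0.51. These lists were not tested as sets.

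**Figure D4:**
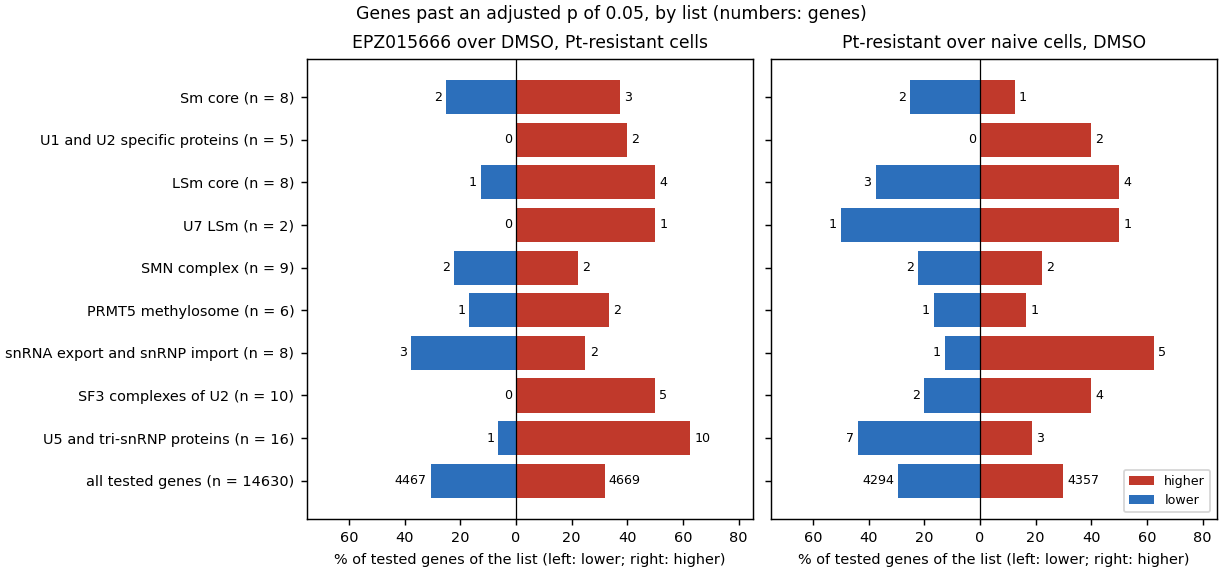
Share of tested genes in each list shown called higher (red, right of 0) or lower (blue, left of 0), adjusted p under 0.05. The number of genes stands at each bar. Panels are EPZ015666 over DMSO in Pt-resistant cells (left) and Pt-resistant over naive cells (right). The lists for mRNA decapping, the minor spliceosome and histone mRNA ends are not shown. The U5 and tri-snRNP list has 10 higher and 1 lower with the inhibitor and 3 higher and 7 lower in Pt-resistant cells; the lowest bar shows all 14630 tested genes.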

How the data were processed

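The deposited values are raw counts per gene, one table of 9 libraries, which the authors made with FastQC and STAR in its gene counting mode from directional libraries. Reads that align more than once or overlap several genes are dropped in that mode, so genes with near-identical copies are undercounted. Their genome build, annotation and strand column were not given in the sources used here. Gene IDs were matched by stable Ensembl ID to symbols (61369 of 61487) and to GENCODE 29 (58312) for exon lengths and overlaps.

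In R 4.3.3, edgeR 4.0.16 kept 14630 genes by filterByExpr (minimum count 10, 99.88% of counts), scaled libraries by TMM and fitted 1 quasi-likelihood model without covariates over all 9 libraries, with Benjamini-Hochberg adjustment at 0.05. The standard error is the log2 fold change divided by the root of F. The fit was tested on simulated data. The study used DESeq2, which is an alternative here (DESeq2 1.42.0). Other alternatives were RLE scaling, library size alone, no filter or 1 CPM as filter, a fit on only the groups compared, a block for the replicate number, and each library left out.

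The members and lists were chosen with earlier results of these data known. All 32 members are named; of the other lists, the 3 genes with the largest absolute log2 fold change among those called in each of the first 2 comparisons, and PRMT5, could be named.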

Additional observations from a re-analysis of the deposited data

How the results depend on the processing

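Of the 96 results (32 genes in 3 comparisons), 77 stayed on their side of the threshold in every alternative run, 13 lost a call in at least 1, 6 gained one and none reversed. Lost calls numbered 4 for the inhibitor against DMSO, 5 for Pt-resistant against naive and 4 for treated against naive cells. Over the alternatives the inhibitor raised 11 to 12 genes and lowered 4 to 6, Pt-resistant against naive cells had 7 to 10 higher and 6 to 8 lower, and treated against naive cells had 13 to 17 higher and 4 to 7 lower. DDX20 passed in treated against naive cells when scaled by library size alone (-0.23) or without naive replicate 1 (-0.25), and SNRPG (0.39) and LSM6 (0.34) without naive replicate 3. SNRPA passed in Pt-resistant against naive cells without Pt-resistant replicate 1, at -0.22. Deviations of libraries with the same replicate number correlated at -0.08 to 0.10, and those with different numbers at -0.11 to 0.08. No pairing by number was visible, though 3 libraries per group cannot exclude it. With the replicate block, 12 genes were higher and 5 lower with the inhibitor, 9 and 8 in Pt-resistant against naive cells (LSM6 lost its call) and 16 and 6 in treated against naive cells (SNRNP70 gained one). The lowest counts, and so the least precise values, were those of SMN1 (24 to 39 per library), LSM2 (67 to 152) and GEMIN8 (92 to 399).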

Other observations

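Further lists that touch the rings were read. Of 8 mRNA decapping genes, which work with the cytoplasmic LSm ring, 2 rose and 4 fell with the inhibitor (25% and 50%, beside 31.9% and 30.5% of all tested genes). PATL1, the protein that links this ring to decapping, had 163, 183 and 165 CPM in inhibitor-treated, 95.8, 84.4 and 83.1 CPM in Pt-resistant and 103, 114 and 102 CPM in naive libraries. It stood above all other libraries in treated cells, at a log2 fold change of 0.96 ± 0.08 (adjusted p = 5.63e-10, edgeR), and was -0.27 ± 0.08 in Pt-resistant against naive cells (adjusted p = 0.00608). DCP1A, a partner of the decapping enzyme, fell by 0.83 with the inhibitor. DCP1B, its paralog, changed by -1.08 with the inhibitor and 1.96 in Pt-resistant against naive cells, on fewer than 3 CPM in every library.

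Of 8 genes for histone mRNA ends, the task of the U7 snRNP, 1 rose and 2 fell with the inhibitor (12.5% and 25%, beside 31.9% and 30.5% of all tested genes). In Pt-resistant against naive cells 3 rose (37.5%, beside 29.8% of all tested genes), and the other 5 were not called. SLBP, which binds the histone stem-loop, had 82.4, 76.9 and 87.0 CPM in inhibitor-treated, 59.3, 67.8 and 58.6 CPM in Pt-resistant and 71.9, 61.3 and 70.2 CPM in naive libraries. It rose by 0.41 ± 0.09 with the inhibitor (adjusted p = 0.000238, edgeR), without overlap. CPSF2 fell by 0.59 with the inhibitor and was 0.53 higher in Pt-resistant than in naive cells, and FIP1L1 changed by -0.44 and 0.34.

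Of 8 proteins of the minor spliceosome, which carries Sm rings too, 1 rose and 2 fell with the inhibitor (12.5% and 25%, beside 31.9% and 30.5% of all tested genes). These were SNRNP25 (0.77 on the log2 scale), ZRSR2 (-0.46) and RNPC3 (-0.32). SNRNP48 was lower (-0.56) and PDCD7 higher (0.25) in Pt-resistant than in naive cells.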
